A study of Gallus gallus with 2 samples.

Results

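Transcription factors and cofactors of the heart field were compared between 2 pieces of the gastrulating chick embryo. The 10 genes, chosen by symbol, were the homeodomain factors NKX2-5 and ISL1, the basic helix-loop-helix (bHLH) factors HAND1, HAND2 and MESP1, the MADS box factors SRF, MEF2A and MEF2C, the SRF coactivator MYOCD, and SMARCD3, a subunit of the BAF chromatin remodelling complex. The array held 21 probe sets for these 10 genes, among 38382 analysed probe sets and 13009 named genes. Each gene had from 1 to 5 probe sets, and all 21 were followed, whatever their values.

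One array was made from the heart forming region (HFR) and the other from the posterior part of the primitive streak (PPP). Chick embryos (no strain is given in the labels) were kept for about 12 h at 37.5 °C, and both labels carry the same treatment, electroporation at HH3 with a reporter plasmid carrying 2.5 kb of the Cerberus regulatory region ahead of EGFP, which codes for a green fluorescent protein. Pieces were cut at HH4 to HH4+ (a further label gives HH4-5), with EGFP fluorescence used to find the HFR. How many embryos were pooled is not stated in the labels, and an electroporated reporter marks cells by plasmid uptake and fragment activity, so the HFR piece was not a sorted population. Probe set values are model-based expression indices (MBEI), intensities on a linear scale, each with a call of present, marginal or absent and with a model standard error that covers probes within 1 array. With 1 array per tissue no difference has a replicate check and no test between tissues was possible.

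In amniote embryos the cells that will build the heart leave the primitive streak as mesoderm, migrate to either side of the midline and only then switch on cardiac regulators. MESP1 acts at the start of that path, in nascent mesoderm, while NKX2-5, ISL1 and the HAND factors mark the heart field once it has formed. SRF, MEF2 proteins and MYOCD then activate contractile genes, and in the mouse SMARCD3 (BAF60C) brings the BAF complex to cardiac enhancers.

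Among 6 genes used to check the labels, 3 went against them, 1 went with them and 2 were near equal, with no rule of size applied. CER1 (Cerberus), the gene behind the reporter, stood at 108.3 ± 19.2 MBEI (marginal) on the array labelled HFR and at 420.2 ± 193.3 (present) on the array labelled PPP. TBXT (Brachyury), a streak factor, stood at 7128.6 ± 80.7 on the array labelled HFR and at 3691.4 ± 147.1 on the array labelled PPP. WNT3A, a signal of the streak, stood at 1200.0 ± 33.0 on the array labelled HFR and at 189.8 ± 7.7 on the array labelled PPP. These 3 lay opposite to what the labels name. Of them TBXT, at 1.93-fold, was under 2-fold, and the log2 difference of CER1 had a model standard error of 0.71. FGF8, another streak gene, lay with the labels, at 62.2 ± 5.8 (absent) on the array labelled HFR and 282.1 ± 16.5 (present) on the array labelled PPP. The mesendoderm factors MIXL1 and EOMES had log2 differences of -0.025 and 0.36. The arrays are therefore named by their labels only, and every direction given here is between arrays whose labels CER1, TBXT and WNT3A went against. Present calls were given to 38.4% of probe sets on the array labelled HFR and 42.2% on the array labelled PPP, with median model errors of 4.71% and 4.18% of the MBEI among present probe sets. Poly-A RNAs added to both samples differed by a median log2 of -1.44 (33 probe sets, from -2.11 to -0.87), and setting them equal moved the median log2 difference of all passing probe sets to 1.42, in place of -0.07. Directions below are therefore relative to the bulk of probe sets on the arrays.

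To pass the level filter, a probe set had to be called present on its brighter array and to read there at least 70.8 MBEI, which is the median when each probe set is taken at its brighter value. Of the 21 probe sets 9 passed, from 7 of the 10 genes. HAND1, MEF2C and SMARCD3 had none that passed. Among the 9, 4 probe sets of 3 genes (MYOCD, ISL1 and HAND2) were higher by 2-fold or more on the array labelled PPP, where 5.22% of all 13393 passing probe sets were. MESP1 alone was higher by 2-fold or more on the array labelled HFR (1 of the 9), against 3.73% of all passing probe sets. With the poly-A RNAs set equal only 5 member probe sets passed, with 0 higher on the array labelled PPP and 3 on the array labelled HFR. The median log2 difference of all 12423 probe sets that passed under that scaling was 1.42, itself past 2-fold. The shares above are those as deposited. Of the 9, 5 passed through the array labelled PPP alone, being marginal or absent on the other, as did 780 of the 13393, with 526 passing through the array labelled HFR alone. A probe set of that kind differed in its call, though no minimum difference in MBEI was required. Of the probe sets passing through 1 array alone, 19.5% were at 2-fold or more in either direction, against 7.80% of those present on both arrays. The 4 member probe sets higher by 2-fold or more on the array labelled PPP were all among the 5 that passed through it alone. Requiring presence on both arrays therefore leaves 0 of them.

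**Figure D1:**
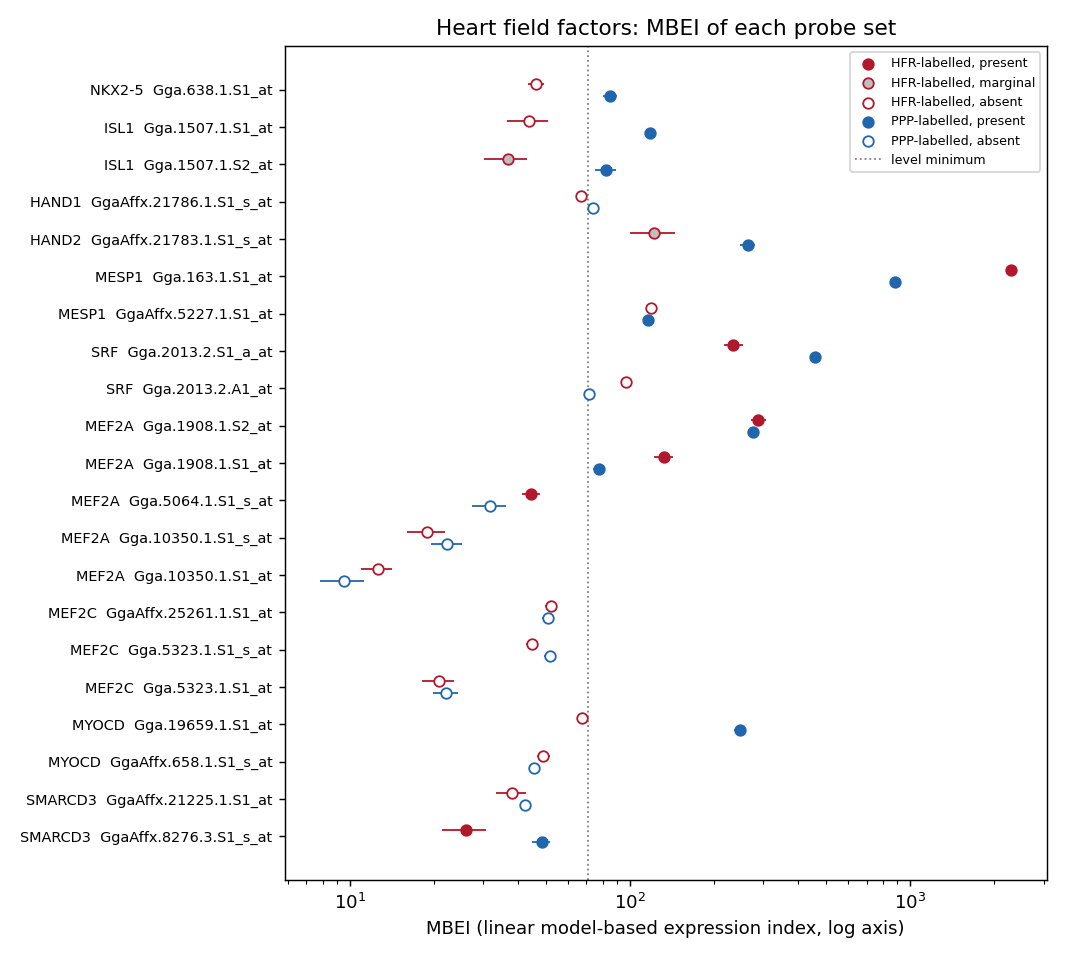
MBEI of the 21 probe sets on the array labelled HFR (upper, red) and the array labelled PPP (lower, blue), on a log axis, with model standard errors as bars. Filled, grey and open points are present, marginal and absent calls, and the dotted line is the level minimum of 70.8 MBEI. MYOCD, ISL1, HAND2 and NKX2-5 were called present on the array labelled PPP only, and MESP1 (Gga.163.1.S1_at) read 2301.2 and 883.7 MBEI. Levels cannot be compared between probe sets.

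NKX2-5, the homeodomain factor that marks committed cardiac precursors, was measured by 1 probe set (Gga.638.1.S1_at). It read 46.4 ± 3.1 MBEI (absent) on the array labelled HFR and 85.1 ± 4.6 (present) on the array labelled PPP. The difference was at least 1.83-fold, with a log2 value of -0.88 and a model standard error of 0.12. This bound did not reach the 2-fold rule, and being a lower bound it does not show a difference under 2-fold. Of all passing probe sets 7.07% had a lower log2 difference. Its level on the array labelled PPP lay near the minimum of the filter. With poly-A RNAs set equal its measured log2 difference was 0.57. That value rests on the absent call, so no direction is given for NKX2-5 under that scaling.

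ISL1, a LIM homeodomain factor of second heart field precursors, was measured by 2 probe sets that both passed. Gga.1507.1.S1_at read 43.8 ± 7.4 MBEI (absent) on the array labelled HFR and 118.3 ± 4.8 (present) on the array labelled PPP, higher by at least 2.70-fold there. Gga.1507.1.S2_at read 36.6 ± 6.4 (marginal) and 82.1 ± 6.9 (present), higher by at least 2.24-fold on the array labelled PPP. The measured log2 differences of the 2 probe sets, both bounds, were -1.43 and -1.17. Differences lower than these 2 were found in 1.89% and 3.54% of passing probe sets. With poly-A RNAs set equal the measured log2 differences were 0.0092 and 0.28. Neither probe set was called present on the array labelled HFR, so no direction is given for ISL1 under that scaling.

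The bHLH factors divided between the arrays. HAND2, a factor of the heart tube and lateral mesoderm, read 122.3 ± 22.3 MBEI (marginal) on the array labelled HFR and 263.1 ± 16.1 (present) on the array labelled PPP. It was higher by at least 2.15-fold there, with a log2 difference of -1.11 and a model standard error of 0.28, and 0.34 with poly-A RNAs set equal. That last value rests on the marginal call, so no direction is given for HAND2 under that scaling. Its model error on the array labelled HFR was 18.2% of the value, about as wide as those of ISL1 on that array (16.9% and 17.5%). HAND1, the related factor of the left ventricle in the mouse, was absent on both arrays, at 66.9 ± 2.2 and 74.1 ± 3.0 MBEI, so no fold is given.

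MESP1, a bHLH factor of nascent mesoderm leaving the streak, lay the other way. Its probe set Gga.163.1.S1_at read 2301.2 ± 11.8 MBEI on the array labelled HFR and 883.7 ± 27.9 on the array labelled PPP, present on both and higher by 2.60-fold on the array labelled HFR. The log2 difference of 1.38 was exceeded by 1.90% of passing probe sets. Its model error of 0.05 on the log2 scale rests on an error of 0.513% of the HFR-labelled value and is no measure of how far another sample would vary. The second probe set, GgaAffx.5227.1.S1_at, read 118.5 ± 4.4 (absent) and 115.7 ± 3.7 (present) and showed no such difference (log2 0.03). It did not pass, because its brighter array was not called present. RefSeq lists MESP2 among the synonyms of this gene, so both names point to the same entry.

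Among the MADS box factors SRF lay toward the array labelled PPP and MEF2A did not. SRF, which binds CArG boxes in contractile and immediate early genes, read 234.4 ± 18.4 MBEI on the array labelled HFR and 457.8 ± 13.0 on the array labelled PPP (Gga.2013.2.S1_a_at, present on both). That is higher by 1.95-fold on the array labelled PPP (log2 -0.97, model standard error 0.12), just under the 2-fold rule, and 2-fold or more once the medians of the arrays were set equal (log2 -1.02). With poly-A RNAs set equal it was 0.48. Its other probe set (Gga.2013.2.A1_at) was absent on both arrays, at 96.6 ± 1.8 and 71.2 ± 1.5 MBEI.

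MEF2A, a MADS box activator of muscle genes, was measured by 5 probe sets, of which 2 passed. Gga.1908.1.S2_at read 287.7 ± 17.7 MBEI on the array labelled HFR and 276.3 ± 9.3 on the array labelled PPP, a log2 difference of 0.06 with a model standard error of 0.10. Gga.1908.1.S1_at read 132.4 ± 10.6 and 77.7 ± 4.0, which is higher by 1.70-fold on the array labelled HFR (log2 0.77). These 2 probe sets of the same gene differed from each other by 0.71 on the log2 scale, against a combined model error of 0.17. Another, Gga.5064.1.S1_s_at, read 44.5 ± 3.2 (present) and 31.7 ± 4.3 (absent), below the level minimum, and the remaining 2 were absent on both arrays. MEF2C, the family member needed for heart tube looping in the mouse, was absent on both arrays with all 3 probe sets, which read 52.1, 44.7 and 20.8 MBEI on the array labelled HFR and 50.9, 51.9 and 22.1 on the array labelled PPP.

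MYOCD, which binds SRF and activates cardiac and smooth muscle genes, had the lowest measured log2 difference of the 9 passing probe sets, as deposited and under each of the other scalings. Gga.19659.1.S1_at read 67.6 ± 0.8 MBEI (absent) on the array labelled HFR and 248.0 ± 12.3 (present) on the array labelled PPP. It was higher by at least 3.67-fold there, with a log2 difference of -1.88 and a model standard error of 0.07. Only 0.747% of passing probe sets had a lower difference, and with poly-A RNAs set equal MYOCD stayed below 0, at -0.43. The other MYOCD probe set, GgaAffx.658.1.S1_s_at, was absent on both arrays, at 49.1 ± 2.6 and 45.3 ± 1.6 MBEI, so the result rests on 1 of 2 probe sets.

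SMARCD3 was dim. GgaAffx.8276.3.S1_s_at was called present on both arrays, at 26.0 ± 4.6 MBEI on the array labelled HFR and 48.4 ± 3.6 on the array labelled PPP, which is higher by 1.86-fold on the array labelled PPP (log2 -0.90, model standard error 0.28) but below the level minimum. GgaAffx.21225.1.S1_at was absent on both, at 37.9 ± 4.5 and 42.3 ± 1.5 MBEI.

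**Figure D2:**
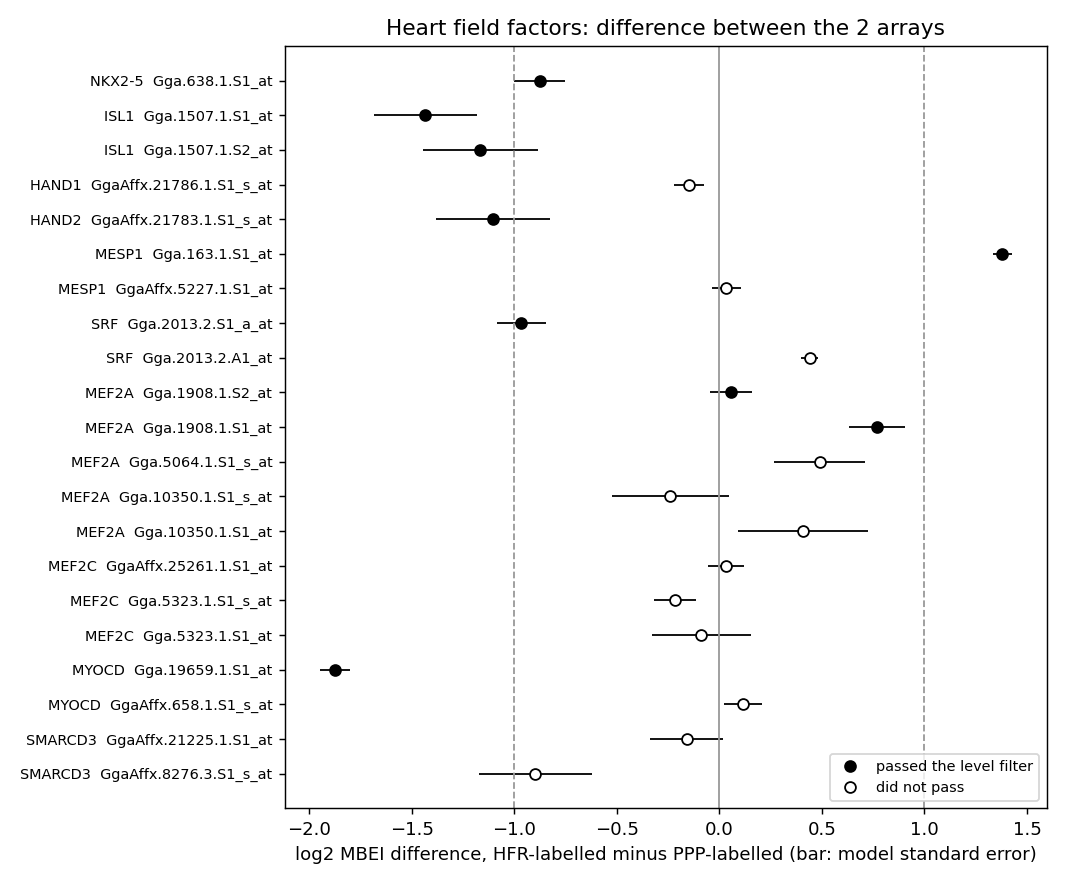
Log2 difference in MBEI, HFR-labelled minus PPP-labelled, for the 21 probe sets, with model standard errors as bars and dashed lines at 2-fold. Filled points passed the level filter. The differences of MYOCD, ISL1, HAND2 and NKX2-5 are bounds, being marginal or absent on the array labelled HFR. MYOCD (-1.88), ISL1 (-1.43 and -1.17) and HAND2 (-1.11) lie left of the 2-fold line and MESP1 (1.38) right of the other.

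Of the 21 probe sets 9 were absent on both arrays, with log2 differences from -0.24 to 0.44, of which 5 lay below 0 and 4 above. All 9 read 96.6 MBEI or less on the array labelled HFR and 74.1 or less on the array labelled PPP. Requiring absent calls on both arrays leaves out dim probe sets called present on either. This range is therefore no measure of how dim members scatter. The 3 probe sets that did not pass but were called present on an array had -0.90 (SMARCD3), 0.49 (MEF2A) and 0.03 (MESP1). In total 6 of the 21 probe sets were called present on the array labelled HFR and 11 on the array labelled PPP. Among all analysed probe sets, present calls were given to 38.4% and 42.2% on these arrays.

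Contrasts between 2 members do not change when an array is multiplied by a constant, so they hold under the medians and under the poly-A RNAs alike. Taking for each gene its passing probe set of highest level, the genes called present on both arrays were MESP1, MEF2A and SRF. The log2 difference of MESP1 exceeded that of SRF by 2.35 with a model standard error of 0.13, a 5.09-fold unequal change, and that of MEF2A by 1.32 with a model standard error of 0.11. MYOCD, ISL1, HAND2 and NKX2-5 were not called present on the array labelled HFR, so their differences are bounds and no order among them is given. Set against these bounds, the difference of MESP1 exceeded theirs by at least 3.26 for MYOCD, 2.81 for ISL1, 2.49 for HAND2 and 2.26 for NKX2-5. MYOCD lay below SRF by at least 0.91 on the same scale. These contrasts hold for the probe sets used and are not floors for a gene. The other passing probe sets of MEF2A (log2 difference 0.77) and ISL1 (-1.17) lay nearer to MESP1 than those used.

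**Figure D3:**
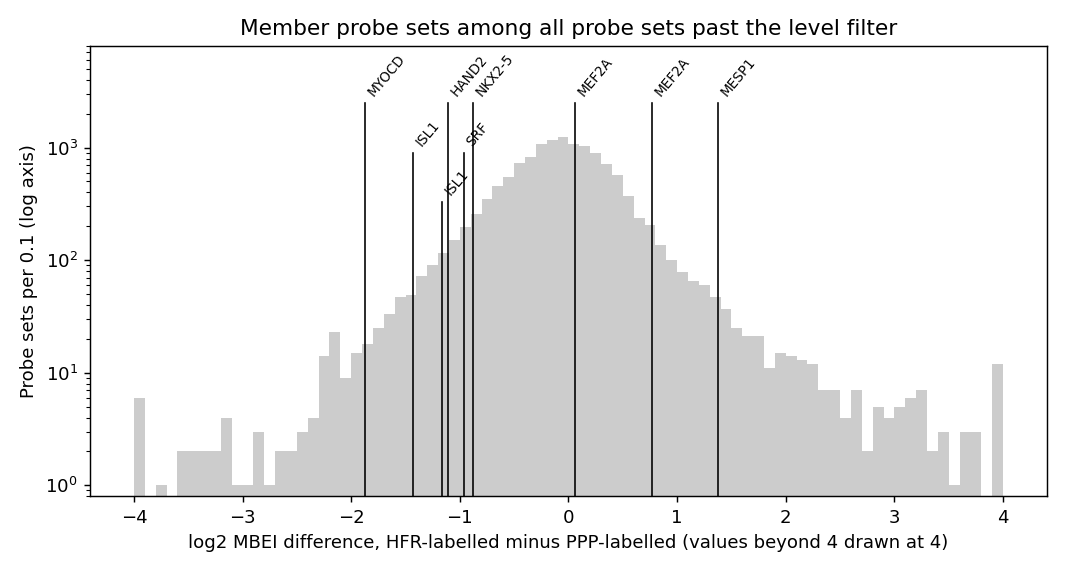
Histogram of log2 differences, HFR-labelled minus PPP-labelled, for the 13393 probe sets past the level filter (log count axis), with the 9 passing member probe sets as vertical lines. The median over all is -0.07 and the SD 0.64. MYOCD lies at -1.88 and MESP1 at 1.38.

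SRF cofactors and targets were described from lists of known genes. Of 8 cofactors on the array 5 passed, with 1 higher by 2-fold or more on the array labelled PPP and 0 on the array labelled HFR, and 4 of the 5 lay below 0. Among all 7389 passing genes, 4.25% were higher by 2-fold or more on the array labelled PPP and 3.86% on the array labelled HFR, with 4046 below 0 and a median of -0.05. FHL2, a LIM protein that binds SRF, read 94.3 ± 6.4 MBEI on the array labelled HFR and 1048.9 ± 195.6 on the array labelled PPP, higher by 11.1-fold on the array labelled PPP. CSRP1 and the ternary complex factor ELK4 had log2 differences of -0.98 and -0.95, while CSRP2 had 0.94. The list's median was -0.95, which is the value of ELK4, but -0.034 over all its genes without the level filter and 0.49 with poly-A RNAs set equal. Under that last scaling the medians of all 7 lists described here lay above 0, as did the median of all passing probe sets.

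Of 19 SRF and myocardin target genes on the array (SRF itself left out) 13 passed and 11 of these lay below 0. A difference of 2-fold or more was seen for 3, each higher on the array labelled PPP, and for 0 on the array labelled HFR, beside the 4.25% and 3.86% of all passing genes. Skeletal actin ACTA1 read 347.5 ± 8.0 MBEI on the array labelled HFR and 1983.6 ± 217.5 on the array labelled PPP (5.71-fold), cardiac actin ACTC1 134.5 ± 5.4 and 394.5 ± 2.5 (2.93-fold), and the immediate early factor EGR1 89.5 ± 8.8 and 208.8 ± 10.4 (2.33-fold). Actin genes are near copies of each other, so their probe sets may share signal. The actin binding genes CALD1, CNN2 and TAGLN had log2 differences of -0.93, -0.90 and -0.79, with a model standard error of 0.77 for TAGLN. The TAGLN value is a bound, since it was absent on the array labelled HFR. CALD1 also had probe sets of lower level at -1.23, -1.16 and -1.13, and TPM1, named after its values were seen, had 1 at -1.15. The median was -0.65, and -0.20 without the level filter. The broad actin genes ACTB and ACTG1, named after their values were seen, had -0.20 and 0.09. The other passing probe sets of ACTB, of lower level, had -0.76, -0.58 and -0.33, and that of ACTG1 had 0.14.

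The bHLH partners and relatives of HAND and MESP, 10 of 12 of which passed, had 2 genes higher by 2-fold or more on the array labelled PPP and 0 on the array labelled HFR. The shares of all passing genes were 4.25% and 3.86%. Both of the 2 genes passed through the array labelled PPP alone. TWIST1, a mesenchymal bHLH factor, read 36.7 ± 6.9 MBEI (absent) on the array labelled HFR and 600.5 ± 44.3 on the array labelled PPP, higher by at least 16.4-fold there. TCF21, a factor of the epicardium and other mesothelia, read 44.7 ± 2.6 (absent) and 117.6 ± 41.4, higher by at least 2.63-fold on the array labelled PPP with a log2 error of 0.51. The tendon factor SCX and the inhibitor ID1 had log2 differences of -0.97 and -0.78, and ID3 had 0.43. Among the E proteins, the common dimer partners, named after their values were seen, TCF3 had -0.05 and its other passing probe sets -0.27 and -0.44. TCF12 had 0.00, with its other passing probe sets at 0.64 and 0.25. The list's median was -0.11.

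In the lists of BAF subunits, MEF2 cofactors and LIM factors no passing gene reached 2-fold by the probe set that represents it, the one of highest mean level. Of 20 BAF subunits 12 passed, 6 above and 6 below 0, with a median of -0.06. The ATPase SMARCA4 read 587.3 ± 31.8 and 894.9 ± 33.9 MBEI (log2 -0.61), PBRM1 had 0.51 and ACTL6A -0.38. Of 11 MEF2 cofactors 7 passed, with a median of 0.00. The class IIa deacetylase HDAC4, which represses MEF2 proteins, had -0.70, and the coactivator NCOA2 0.40, with 1 of its 3 passing probe sets in that direction. MEF2D, itself a MEF2 family member and counted again among the other cardiac factors, had -0.57. Of 17 LIM factors and their binding proteins 5 passed, with a median of -0.29. LMO1 had -0.76, LDB2, an adaptor that binds LIM homeodomain proteins, 0.62, and LMO4 -0.40 with its other passing probe set at 0.17. LMO1 was absent on the array labelled HFR, so its difference, at least 1.70-fold, is a bound. It does not show a difference under 2-fold. LMO2, an adaptor in blood forming cells, was counted as not passing because its representing probe set was absent on both arrays. Its other probe set, Gga.74.1.S1_at, passed, at 44.2 ± 3.8 MBEI (marginal) on the array labelled HFR and 501.3 ± 7.0 (present) on the array labelled PPP, higher by at least 11.3-fold there, and was named after its values were seen.

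Of 25 other cardiac transcription factors on the array 8 passed, 3 above and 5 below 0, with a median of -0.19. SALL4 had a log2 difference of 0.80 with 1 probe set and -0.22 with the other, HEY1 had 0.66 and GATA5 -0.62. GATA5, a zinc finger factor of cardiac mesoderm and endoderm, read 2803.6 and 4308.1 MBEI, and its second probe set had -0.97. The partners with which NKX2-5 shares many targets, GATA4 and TBX5, were named after their values were seen. GATA4 read 46.0 ± 3.4 MBEI (absent) and 58.8 ± 5.9 (present), below the level minimum, and the 3 TBX5 probe sets were absent on both arrays.

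**Figure D4:**
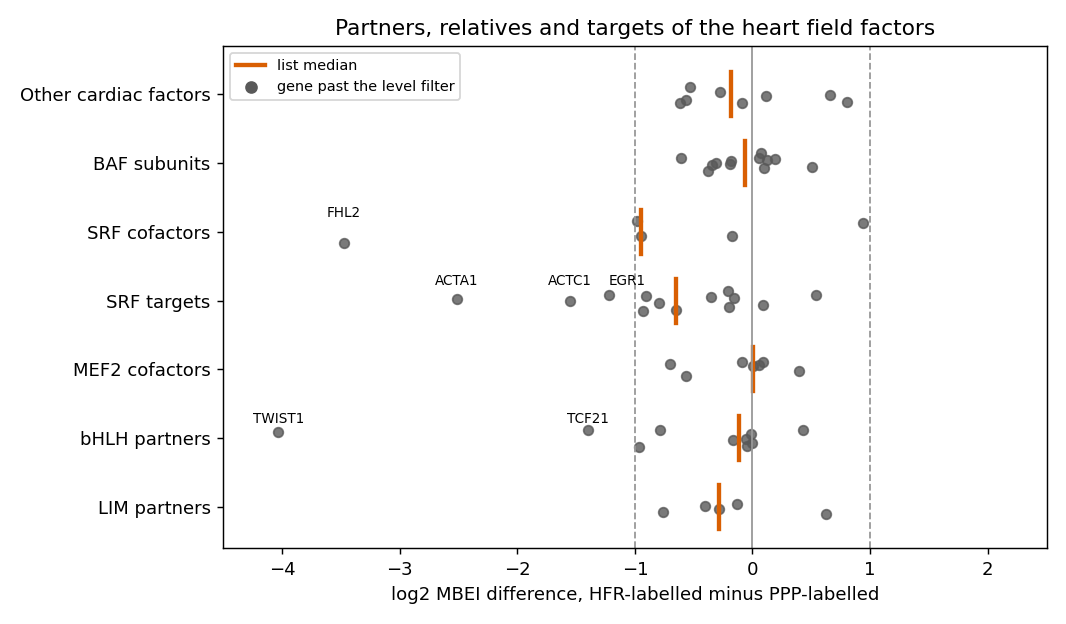
Log2 difference, HFR-labelled minus PPP-labelled, of each passing gene by its representing probe set (grey points, spread vertically for view) in the 7 lists of partners, relatives and targets, with the list median as an orange bar and dashed lines at 2-fold. The genes past 2-fold are named, and all 6 lie toward the array labelled PPP. Medians run from -0.95 (SRF cofactors) to 0.00 (MEF2 cofactors).

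Markers of other cell types also differed between the arrays, in both directions, and whether they bear on the members was not tested. Among all passing genes, 4.25% were higher by 2-fold or more on the array labelled PPP and 3.86% on the array labelled HFR. Of 11 markers of epithelia and extraembryonic layers 9 passed, and all 9 were higher by 2-fold or more on the array labelled HFR. Among them ASTL, UPK1B, HNF4A and TTR passed through that array alone, being marginal or absent on the other. The summed MBEI of all 11 was 24329.4 on the array labelled HFR and 3366.2 on the array labelled PPP. Each sum given here covers every list gene on the array, passing or not. GATA3 in that list was absent on both. Of 12 blood and endothelial markers on the array 8 passed, all below 0, and 4 were higher by 2-fold or more on the array labelled PPP (summed MBEI 7195.2 and 11752). Of the 4, CDH5 and FLT1 passed through the array labelled PPP alone, being absent on the other. SOX17 alone supplied 5028.5 and 7241.3 of the summed MBEI, so the sums mostly describe that gene. Outside the counts of this list lay the passing LMO2 probe set given above and a second SOX17 probe set, at 226.1 ± 10.6 and 558.5 ± 4.3 (2.47-fold). ERG, GATA2 and RUNX1 were absent on both arrays. Cardiomyocyte markers had 6 of 14 passing, with 3 higher by 2-fold or more on the array labelled PPP and 1 on the array labelled HFR (summed MBEI 2428.2 and 4719.1). ACTC1 was among the 3 and is also counted with the SRF targets. The 1 was MYL3, which read 210 ± 77.9 MBEI on the array labelled HFR and 21.9 ± 3.8 (absent) on the array labelled PPP. MYL2, PLN, RYR2 and MYH7B were absent on both. Of 19 TTN probe sets 1 was called present, which read 4.6 MBEI (absent) on the array labelled HFR and 12.4 (present) on the array labelled PPP, below the level minimum. Markers of presomitic and lateral mesoderm had 4 of 10 passing, with 1 higher by 2-fold or more on the array labelled HFR (summed MBEI 3967 and 1620.9). That list includes the member HAND1, and shares FOXC2 and FOXF1 with the other cardiac factors and TCF15 with the bHLH partners. Neural plate markers had 3 of 7 passing (summed MBEI 1481.5 and 912.3). Only SOX3, also in the epithelial list, was higher by 2-fold or more on the array labelled HFR, at 916.2 and 148.9 MBEI. The other passing genes lay below 0, OTX2 at -0.88 and HESX1 at -0.67, while SOX2, PAX6, SIX3 and ZIC1 were absent on both. The HESX1 value is a bound, with a marginal call on the array labelled HFR. In dissected pieces a lower MBEI from fewer cells of a type cannot be told apart from less RNA per cell.

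**Figure D5:**
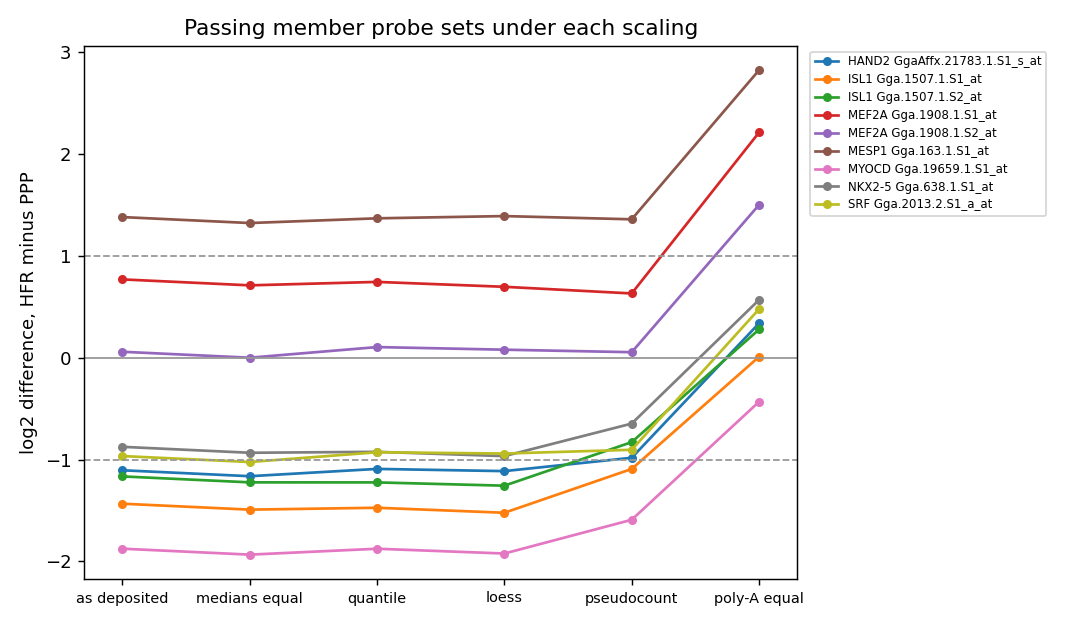
Log2 difference, HFR-labelled minus PPP-labelled, of the 9 passing member probe sets as deposited and under 5 other scalings (x axis), with lines joining the same probe set. The first 5 settings keep MYOCD between -1.93 and -1.59 and MESP1 between 1.32 and 1.39. With poly-A RNAs set equal all 9 lie higher by 1.44, and MYOCD alone stays below 0. The values of NKX2-5, ISL1 and HAND2 there rest on absent or marginal calls on the array labelled HFR and give no direction. Only 5 member probe sets passed under that scaling.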

How the data were processed

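RNA from 2 dissected chick tissues was hybridised to GeneChip Chicken Genome arrays after 2-cycle amplification of 45 ng total RNA. The authors deposited intensity values as model-based expression indices (MBEI), linear, with calls and standard errors per the file headers. Per the labels' design text, invariant set normalization to a baseline array preceded a model of perfect match probes over 6 arrays, of which 4 belong to other work, and their 12 columns were left aside. The submitters' processing notes name GCOS 1.3. The software behind the model fit is not stated in these sources.

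Of 38535 probe sets 153 control or reporter sets were left out. Symbols came from the platform annotation, updated through Entrez IDs with RefSeq (GRCg7b), where 26853 of 27168 probe sets with 1 symbol matched, 177 had several and 11037 none. No sequences are printed. A gene outside the members was represented by the probe set of highest mean log2 MBEI. Log2 differences are HFR minus PPP, with 1 MBEI listed at 0 set to 0.1. Their standard errors were propagated from both model errors. Where the dimmer array was not present, the fold is a lower bound, against that array's value or its smallest present MBEI (6.5 on HFR, 4.8 on PPP), whichever was higher. The number of arrays limits the precision. Named are all members, each list's passing genes at 2-fold and up to 3 others by size. Members and lists were chosen with earlier results of these data known. Python 3.11.15, pandas 2.3.3 and statsmodels 0.14.6 were used, and the functions were tested on simulated data.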

Additional observations from a re-analysis of the deposited data

How the results depend on the processing

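The counts of member probe sets at 2-fold were 4 higher on the array labelled PPP and 1 on the array labelled HFR. The first was 5 with medians set equal, 3 without probe sets marked s, x or a in their IDs (those that may match several transcripts), 6 at 1.5-fold, 2 with a pseudocount of 22 MBEI and with the stricter filter (75th percentile), and 0 at 4-fold, with presence required on both arrays and with poly-A RNAs set equal. The second was 3 with poly-A RNAs set equal, 2 at 1.5-fold and 0 at 4-fold. Requiring presence on both arrays leaves 4 of the 9 passing probe sets, and the pseudocount shrinks dim values by construction. With poly-A RNAs set equal 5 member probe sets passed. Poly-A scaling also gave HAND2 0.34 and ISL1 0.0092 and 0.28 in place of -1.11, -1.43 and -1.17, and NKX2-5 0.57 in place of -0.88. These rest on marginal or absent calls on the array labelled HFR, so they show no turn in direction. SRF, present on both arrays, turned to 0.48 in place of -0.97. The list medians under poly-A scaling were 1.5 (BAF), 1.39 (bHLH), 1.23 (LIM), 0.94 (SRF targets), 0.49 (SRF cofactors), 1.44 (MEF2 cofactors) and 1.23 (other cardiac factors), with all passing probe sets at 1.42. Without the level filter the medians were 0.080 (BAF), 0.021 (LIM), -0.20 (SRF targets), -0.034 (SRF cofactors) and 0.11 (other cardiac factors). With the stricter filter and with presence on both arrays SRF targets had -0.50 and other cardiac factors -0.54. SRF targets also had -0.50 at a relative error under 30%. Without the marked probe sets the medians were -0.16 (BAF) and -0.32 (SRF targets), and the median over passing probe sets gave -0.15 (BAF) and -0.22 (bHLH). The cause of each was not tested. Quantile normalization, a loess trend (span 0.3) and the series' value table (equal for all 38535 probe sets) moved neither of these counts by over 1.5 times. They moved no list median by more than the median model error of its passing genes, which is not an error of the list median itself. The same holds for the counts, the only results recomputed, under an error rule of over 2 standard errors, and for the list medians, the only results recomputed, under the highest passing probe set. No paired analysis was possible because each tissue has 1 array, which also leaves no replicate to omit.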

Other observations

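ISL1 and MEF2C are assigned to chromosome Z in the RefSeq table. The 344 passing Z-linked genes had a median log2 difference of -0.09 and the 6983 passing autosomal genes -0.05, against -1.43 and -1.17 for the ISL1 probe sets.

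A few list genes that did not pass the level filter, and lie outside the naming rule, had measured differences past 2-fold. Below the level minimum, LHX8, a LIM homeobox relative of ISL1, read 13.1 ± 3.9 MBEI (absent) on the array labelled HFR and 55.1 ± 2.2 (present) on the array labelled PPP, a difference of at least 4.21-fold. TFAP2A, an ectodermal factor, read 63.5 ± 10.9 and 30 ± 12 (present on both), higher by 2.12-fold on the array labelled HFR with a log2 error of 0.63. FOXC1, a forkhead factor of mesoderm, was absent on both arrays at 55.6 ± 1.1 and 121.3 ± 58.8 MBEI, so no fold is given. All 3 were picked with their values in view.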
